A study of Mus musculus with 2 samples.

Results

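The MHC class I pathway was examined in donor T cells and in the other cells of the same sort, through 9 of the 32285 genes listed in both libraries: H2-K1, H2-D1, H2-Q7, H2-T23, B2m, Tap1, Tap2, Tapbp and Nlrc5. The genes were taken by name from the gene lists of the files, and all 9 were detected in both libraries. The libraries came from an allogeneic hematopoietic cell transplantation, in which irradiated BALB/c recipients were given T cell-depleted marrow and WT splenic T cells of C57BL/6 mice. Spleen cells were sorted as CD45+ H2Kb+ H2Kd- TCRβ+, pooled from 5 spleens, and sequenced with 10x Genomics chemistry in 1 library from day +7 and 1 from day +14. The label protocol names a day +7 sort for both, so each day was taken from the library title, and the library names carry the word PBS. The number of donor T cells differs between the sources and is left out. Both days share the strain pair, the irradiation and the marrow, and no untransplanted or syngeneic library was analysed here.

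MHC class I molecules display short peptides from inside the cell on its surface, where CD8+ T cells read them. A heavy chain folds with β2-microglobulin, the TAP transporter carries peptides from the cytosol into the endoplasmic reticulum, and tapasin holds the empty molecule next to TAP until a peptide binds. Interferons raise most genes of the pathway, and NLRC5 is the transactivator that acts on class I promoters. In transplantation the class I molecules of the recipient are themselves targets of donor T cells. The values here are from cells sorted as donor cells, and their origin was not checked by genotype.

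Of the heavy chains, H2-K1 and H2-D1 are classical, and H2-Q7 and H2-T23 are nonclassical. H2-K1 encodes H2Kb, 1 of the proteins on which the cells were sorted, so every sorted cell was selected for carrying its product. In GRCm38 (mm10), the strain of which is C57BL/6, 7 of the 9 genes lie on chromosome 17. These are Tapbp (chr17:33915899-33929292), H2-K1 (chr17:33996017-34000347), Tap1 (chr17:34187553-34197225), Tap2 (chr17:34203527-34216321), H2-D1 (chr17:35262730-35267499), H2-Q7 (chr17:35439155-35443773) and H2-T23 (chr17:36029773-36032855). B2m is on chromosome 2 (chr2:122147686-122153083) and Nlrc5 on chromosome 8 (chr8:94434356-94527272). All are protein-coding, H2-K1 and H2-T23 on the minus strand and the others on the plus strand. Class I heavy chains resemble each other, and part of the transcript ends cannot tell genes apart. Of the 50-base windows in the last 500 bases of their coding transcripts, 9.6% in H2-K1, 8.92% in H2-D1, 11.8% in H2-Q7 and 38.1% in H2-T23 also occur in transcripts of another gene. For H2-Q7 those other genes are H2-Q5 and H2-Q10, and for H2-K1 and H2-D1 they include each other. AC132307.5 and Adsl also share windows with H2-D1. For H2-T23 the genes sharing most are Rab33b, H2-T-ps and Hook2. Rab33b and Hook2 are not class I genes, so its share does not come from class I likeness alone. Of the windows of Tap1, 2.75% also occur in transcripts of Tap2, and none of the windows of B2m, Tap2 and Nlrc5 is shared. Which transcript end the kit read is not given in the sources used here, and values of the heavy chains are uncertain to that extent.

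RefSeq promoters (GRCm38.p6) were at hand for 7 of the 9 genes, H2-K1, H2-D1, H2-Q7, H2-T23, B2m, Tap1 and Tapbp. The 250 bases before each start were searched on both strands for GAAA and GAAA with any 2 bases between them (ISRE), TTCNNNGAA (GAS), GGGANTTCC (kappa B), CCAAT (Y box) and TGACG (CRE core). The 4 stretches below are shown because they share an arrangement of motif letters that the other promoters of the group do not have. Each is the 150 bases before the start, 5′ to 3′ on the strand of the gene, with matched letters in capitals (CCAAT on the other strand reads ATTGG):
H2-K1: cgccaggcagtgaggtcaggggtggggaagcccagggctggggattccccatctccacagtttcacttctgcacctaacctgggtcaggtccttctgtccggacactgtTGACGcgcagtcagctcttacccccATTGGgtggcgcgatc
H2-D1: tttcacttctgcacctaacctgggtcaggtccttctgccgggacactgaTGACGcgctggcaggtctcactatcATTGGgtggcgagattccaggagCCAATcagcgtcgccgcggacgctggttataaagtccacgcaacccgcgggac
H2-Q7: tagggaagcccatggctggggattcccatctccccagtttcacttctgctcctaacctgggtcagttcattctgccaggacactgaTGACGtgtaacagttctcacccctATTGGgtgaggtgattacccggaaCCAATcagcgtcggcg
B2m: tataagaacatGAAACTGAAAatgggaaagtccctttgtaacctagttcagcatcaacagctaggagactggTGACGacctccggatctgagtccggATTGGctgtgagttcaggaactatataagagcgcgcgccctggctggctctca
They lie at chr17:34000348-34000497 on the minus strand for H2-K1, and on the plus strand at chr17:35262944-35263093 for H2-D1, chr17:35439005-35439154 for H2-Q7 and chr2:122147537-122147686 for B2m. In all 4, TGACG is followed by ATTGG on the same strand, with 20 bases between the motifs in H2-K1, H2-D1 and B2m and 19 in H2-Q7. This spacing was looked for after the sequences had been seen. Among all 32851 promoter windows, 25 windows of 21 genes (0.0761%) hold the pair at either spacing, and H2-M3, another class I gene, is among the others. The single motifs are far more common, with TGACG in 17.8% and CCAAT in 33.8% of all windows. The B2m stretch also holds an ISRE, 139 to 130 bases before the start, and H2-T23 holds an ISRE on the other strand 124 to 115 bases before its start, a motif found in 2.98% of windows. H2-K1, H2-D1, H2-Q7, Tap1 and Tapbp had no ISRE match. No window of these 7 genes matched GAS (7.02% of all windows) or kappa B (1.43%) as spelled here. For all of these motifs this says only that the exact letters are absent from the windows. Looser spellings were not searched, so such sites may still lie in the printed stretches.

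Unique molecular identifiers (UMIs), which count captured RNA molecules, were summed over the cells of a gate in each library and are given per 1000000 UMIs of that gate (CPM). UMIs count molecules and were not divided by transcript length, so an order of levels between genes is an order of captured molecules. Gates were set by marker UMIs: Cd8a or Cd8b1 without Cd4 or Foxp3 for CD8 T cells, Cd4 without Cd8a, Cd8b1 or Foxp3 for conventional CD4 T cells, Foxp3 without Cd8a or Cd8b1 for Foxp3+ T cells, and neutrophil or erythroid genes for the remaining gates. After filtering, 7179 cells with a median of 9210 UMIs remained at day +7 and 7794 with a median of 8144 at day +14, and 17 barcodes were kept in both. CD8 T cells numbered 5799 and 5940 at days +7 and +14, conventional CD4 T cells 456 and 693, Foxp3+ T cells 41 and 39, neutrophil-gate cells 42 and 75, and erythroid-gate cells 126 and 32. Ikzf2, which encodes Helios and marks regulatory T cells, was not used for gating and stood at 576 and 1022 CPM in the Foxp3+ gate against 29.1 and 59.5 CPM in conventional CD4 T cells, and Il2ra and Ctla4 were higher there as well on both days. Each day is 1 library, so no test was possible, and the 95% intervals in brackets cover counting error only. "Past 1.5-fold" describes a gene whose sums averaged 10 CPM or more and held 50 UMIs or more, and that differed by at least that fold, and the share of all such genes past it is given as the background.

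In CD8 T cells the classical heavy chains and the light chain were the most abundant members. H2-D1 stood at 1862 CPM [1851, 1872] on day +7 and 1918 CPM [1908, 1929] on day +14. H2-K1 stood at 1349 CPM [1340, 1357] on day +7 and 1852 CPM [1841, 1862] on day +14. H2-K1 was thus below H2-D1 at day +7 and close to it at day +14, while H2-D1 itself hardly moved. B2m, the shared light chain, was at 1475 CPM [1466, 1484] and then 1844 CPM [1834, 1854]. The nonclassical H2-Q7 was at 970.4 CPM [963, 977.9] and then 953 CPM [945.5, 960.5], and H2-T23, which encodes the Qa-1 molecule read by NKG2 receptors, at 184 and 205 CPM. H2-Q7 and H2-D1 thus differed little between the days, whereas B2m and H2-K1 were higher at day +14.

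The peptide-loading genes and the transactivator were expressed at lower levels. Tap1, 1 of the chains of the TAP transporter, was at 116 CPM [114, 119] on day +7 and 186 CPM [183, 190] on day +14. Tap2, its partner, was at 100.1 CPM [97.8, 103] and 119.8 CPM [117, 122]. Tapbp, which encodes tapasin, was at 95.7 CPM [93.4, 98.1] and 122 CPM [119.6, 125], so the 3 loading genes were near each other at day +7 and Tap1 stood apart at day +14. Nlrc5, the transactivator and the least abundant member, was at 24.4 CPM [23.2, 25.6] on day +7 and 46.4 CPM [44.8, 48.1] on day +14.

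**Figure D1:**
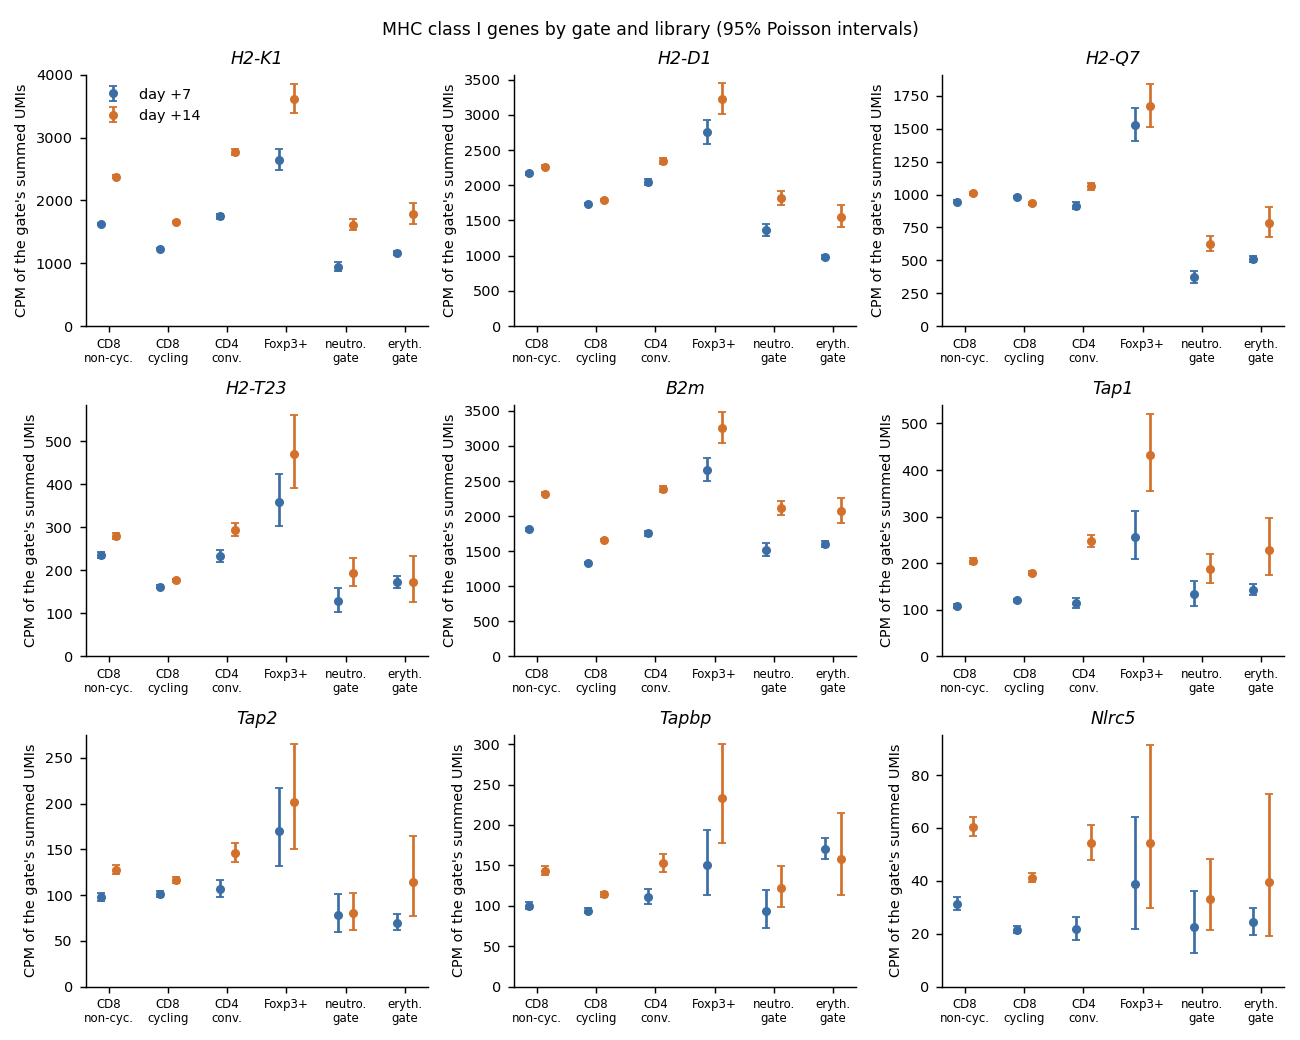
Level of each gene in 6 gates, in CPM of the summed UMIs of the gate (y axis, from 0), at day +7 (blue) and day +14 (orange), with 95% Poisson intervals that cover counting error only. Foxp3+ T cells have the highest point at both days in the panels of H2-K1, H2-D1, H2-Q7, H2-T23, B2m, Tap1 and Tap2, and Nlrc5 in non-cycling CD8 T cells stands at 31.2 CPM and then 60.3 CPM.

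The first comparison asked how the pathway differed between the days in CD8 T cells. Nlrc5 and Tap1 were the members past 1.5-fold, both higher at day +14, so 2 of 9 were higher against 10% of the 6822 genes tested. The log2 ratio of day +14 over day +7 was 0.93 [0.84, 1.02] for Nlrc5, 0.68 [0.64, 0.72] for Tap1, 0.46 [0.44, 0.47] for H2-K1 and 0.32 [0.31, 0.33] for B2m. It was 0.35 for Tapbp, 0.26 for Tap2, 0.15 for H2-T23, 0.04 for H2-D1 and -0.03 for H2-Q7. All genes tested had a median of 0.19, so 6 of 9 members lay above the median gene and H2-D1, H2-Q7 and H2-T23 below it. Scaling by the median ratio of abundant genes in place of the total moved each value down, to 0.71 for Nlrc5, 0.46 for Tap1 and 0.24 for H2-K1, left Nlrc5 alone past 1.5-fold, and put H2-D1 at -0.18 and H2-T23 at -0.07.

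The members therefore differed among themselves within the same cells. UMIs of H2-K1 per UMI of H2-D1 were 0.725 [0.718, 0.731] in CD8 T cells at day +7 and 0.965 [0.958, 0.973] at day +14. No scaling of the libraries can alter this ratio, although part of the transcript ends of these genes is shared, as stated above. UMIs of Tap1 per UMI of Tap2 were 1.16 [1.13, 1.2] and 1.56 [1.51, 1.6]. B2m per UMI of H2-K1, H2-D1 and H2-Q7 together was 0.353 and 0.390. In conventional CD4 T cells the ratio of H2-K1 to H2-D1 was 0.854 at day +7 and 1.18 at day +14. In Foxp3+ T cells it was 0.961 [0.882, 1.05] and 1.12 [1.02, 1.23]. In each of these T cell gates H2-K1 was the less abundant of the pair at day +7, although for Foxp3+ T cells the interval includes equality. In conventional CD4 and Foxp3+ T cells it was the more abundant at day +14, and in CD8 T cells it was still slightly below H2-D1.

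In conventional CD4 T cells H2-K1, Tap1 and Nlrc5 were again the members with the highest ratios between the days. H2-K1 was at 1748 CPM [1710, 1786] on day +7 and 2773 CPM [2727, 2819] on day +14. Tap1 was at 114 CPM [105, 124] and then 247 CPM [234, 261]. Nlrc5 was at 21.6 CPM [17.6, 26.2] and then 54.3 CPM [48, 61.2]. These genes were past 1.5-fold, 3 of 9 higher against 15.5% of the 6981 genes tested, with log2 ratios of 0.67 [0.63, 0.71], 1.12 [0.97, 1.26] and 1.33 [1.00, 1.67]. The remaining members lay between 0.19 (H2-D1) and 0.46 (Tap2 and Tapbp), with B2m at 0.45, so all 9 were above the median of all genes, 0.17. Every member kept its sign under all 9 alternatives run for this comparison, but H2-K1 was at 0.57 with median-ratio scaling, which left 2 of 9 past 1.5-fold. With cells thinned to 4000 UMIs 5 of 9 were past it, against 21.3% of genes in either direction, after 13 and 198 shallower cells had been left out. Neutrophil genes summed to 18.0 CPM in this gate at day +7 and 57.3 CPM on day +14, with 8 and 9 of the 9 listed genes detected, and their part in the difference was not tested.

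In Foxp3+ T cells the intervals were wide, since the gate held 41 and 39 cells. H2-K1 was at 2644 CPM [2485, 2812] on day +7 and 3613 CPM [3385, 3853] on day +14. Tap1 was at 256 CPM [208, 312] and then 431 CPM [355, 519], and Tapbp at 149.9 CPM [114, 194] and then 233 CPM [178, 300.1]. Tap1 and Tapbp were past 1.5-fold, 2 of the 8 members with enough UMIs against 13.1% of 1766 genes, and Nlrc5, with 15 and 14 UMIs, was left out by the filter. With at least 2 Foxp3 UMIs required, which left 23 and 24 cells, no member was past 1.5-fold and Tap1 had a log2 ratio of 0.32. One day +14 cell carried 33 UMIs of B-lineage genes, and the counts were the same without it.

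**Figure D2:**
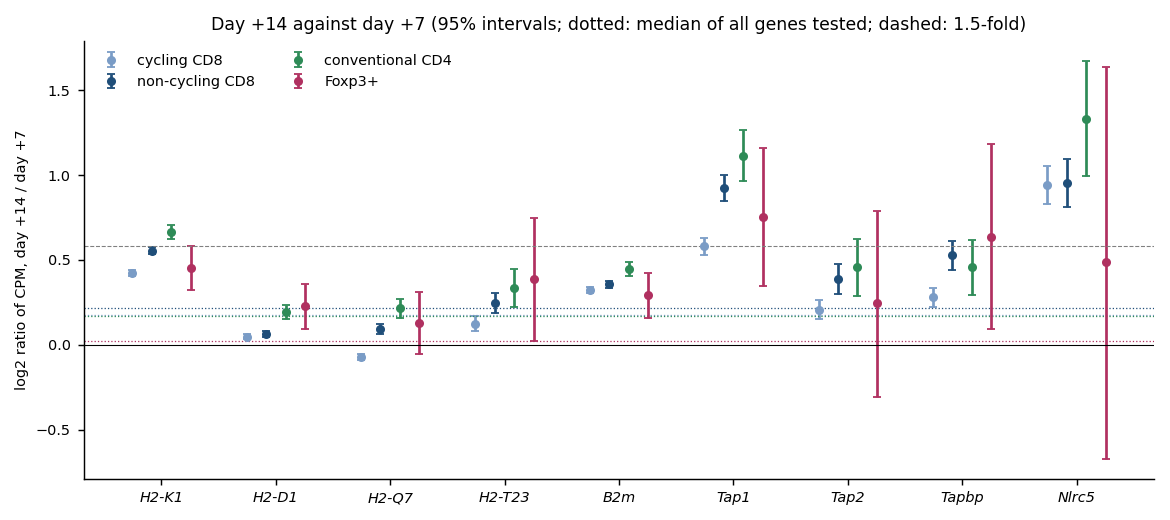
Log2 ratio of CPM on day +14 over day +7 for each gene (x axis) in cycling CD8, non-cycling CD8, conventional CD4 and Foxp3+ T cells, with 95% intervals for counting error. The dashed line marks 1.5-fold and the dotted lines the median of all genes tested in each comparison; Nlrc5, Tap1 and H2-K1 lie highest in the CD8 and CD4 gates, and H2-Q7 in cycling CD8 T cells lies at -0.07.

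Cycling cells, taken as those with at least 0.1% of their UMIs on proliferation genes, made up 3141 CD8 T cells at day +7 and 3271 at day +14. The 9 members summed to 5776 CPM [5755, 5798] in cycling and 7116 CPM [7080, 7153] in non-cycling CD8 T cells at day +7. At day +14 the sums were 6668 CPM [6645, 6692] and 8782 CPM [8738, 8825]. H2-T23 had log2 ratios of cycling over non-cycling cells of -0.54 [-0.59, -0.49] and -0.66 [-0.71, -0.61] at days +7 and +14. It was the 1 member of 9 past 1.5-fold, at day +14, when 7.02% of 7048 genes were lower by that much, and at day +7 no member was, against 19.6% of genes in either direction. H2-K1 (-0.39 and -0.52), H2-D1 (-0.32 and -0.34), B2m (-0.44 and -0.48) and Nlrc5 (-0.54 and -0.55) were also lower in cycling cells at both days. H2-Q7 (0.05 and -0.11), Tap1 (0.15 and -0.19) and Tap2 (0.05 and -0.13) were above 0 at day +7 and below it at day +14, and Tapbp had -0.08 and -0.33. When the total was taken without mitochondrial, ribosomal protein and rRNA-associated genes, 2 members at day +7 and 3 at day +14 were past 1.5-fold, all lower in cycling cells, against 20.8% and 19.3% of all genes in either direction.

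Depth differed with cycling, and the order of the gates was not the same in every depth class from 2000 to 15000 UMIs. Cells outside this range were not compared by class. At day +7 the classes held 11, 182, 541 and 1153 of the 3141 cycling CD8 T cells, in order of depth. Cycling CD8 T cells had medians of 13093 and 12454 UMIs at days +7 and +14, against 6915.5 and 5762 in non-cycling cells. Within cells of 6000 to 9000 UMIs the members summed to 7740 CPM [7655, 7826] in cycling and 7233 CPM [7177, 7290] in non-cycling cells at day +7. At day +14 they summed to 8799 CPM [8712, 8886] and 8623 CPM [8545, 8702] in that class. Cycling cells were therefore the higher ones there, as they were from 4000 to 6000 UMIs, whereas from 9000 to 15000 UMIs they were the lower ones, 6444 against 6578 CPM on day +7 and 7147 against 7828 CPM on day +14. From 2000 to 4000 UMIs cycling cells were again the lower ones, at 5375 CPM [4622, 6215] in 11 cells against 7798 CPM [7446, 8163] on day +7 and 9855 CPM [9338, 10393] in 44 cells against 11454 CPM [11250, 11661] on day +14. Their summed CPM was lower with each deeper class from the class of 4000 to 6000 UMIs to that of 9000 to 15000 in both gates and on both days. The lower pooled sum of cycling cells thus went together with their greater depth, whose part in it was not tested.

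Conventional CD4 T cells showed the same contrast by cycling. At day +14, H2-K1 (-0.67), H2-T23 (-0.85), B2m (-0.61) and Nlrc5 (-0.99) were lower in cycling cells past 1.5-fold, 4 of 9 members against 21% of genes, and at day +7 no member was past it, against 25.8% in either direction. Cycling conventional CD4 T cells were the deeper ones too, with medians of 12619 and 11998.5 UMIs against 6904 and 4403.

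The difference between the days was present at matched depth. In non-cycling CD8 T cells of 6000 to 9000 UMIs, H2-K1 was at 1639 CPM [1612, 1666] on day +7 and 2313 CPM [2272, 2354] on day +14. Tap1 was at 105 CPM [98.6, 112] and 191 CPM [180, 203], and Nlrc5 at 29.3 CPM [25.8, 33.1] and 55.1 CPM [49, 61.7]. H2-D1 was at 2220 CPM [2189, 2251] and 2249 CPM [2209, 2290], with intervals that overlap. By cycling gate, Tap1 and Nlrc5 were past 1.5-fold between days in non-cycling CD8 T cells (17.4% of genes higher) and Nlrc5 alone in cycling ones (8.07%), where Tap1 had 0.58 [0.53, 0.63], just under the limit. In non-cycling conventional CD4 T cells Nlrc5 had 1.7 [1.23, 2.19], Tap1 1.17 and H2-K1 0.74, the 3 members past it (23.5%), and in cycling ones Tap1 had 1.04 and Nlrc5 0.78, the 2 past it (12.3%). At 6000 to 9000 UMIs, non-cycling conventional CD4 T cells had H2-K1 at 2034 CPM [1943, 2128] and then 2914 CPM [2781, 3053], and Nlrc5 at 20.5 CPM [12.3, 32] and then 71.6 CPM [52.1, 96.2], so the difference was also there at matched depth.

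The 2 main T cell lineages were compared next. No member differed by 1.5-fold between conventional CD4 and CD8 T cells, at day +7 (6.42% of genes past it in either direction) or day +14 (10.3%). H2-K1 was nonetheless higher in conventional CD4 T cells, by a log2 ratio of 0.37 [0.34, 0.41] at day +7 and 0.58 [0.56, 0.61] at day +14. At day +14 all 9 members had a ratio above 0, from 0.16 for H2-Q7 to that of H2-K1, with H2-T23 at 0.52, Tap1 at 0.41 and B2m at 0.38. At day +7, H2-Q7 (-0.09 [-0.13, -0.04]) was lower in conventional CD4 T cells, and the intervals of Tap1, Tap2 and Nlrc5 included 0. Within non-cycling cells of 6000 to 9000 UMIs the members summed to 7942 CPM [7762, 8126] in conventional CD4 and 7233 CPM in CD8 T cells at day +7, and to 9950 CPM [9702, 10202] and 8623 CPM on day +14.

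Foxp3+ T cells carried more class I transcripts than conventional CD4 T cells. Summed over the 9 members, they had 10552 CPM [10230, 10880] against 7050 CPM [6974, 7126] on day +7, and 13148 CPM [12708, 13598] against 9460 CPM [9375, 9546] on day +14. Tap1 differed most, by a log2 ratio of 1.16 [0.84, 1.48] at day +7 and 0.80 [0.51, 1.08] at day +14. The nonclassical H2-Q7 was at 1528 CPM [1407, 1656] in Foxp3+ and 915 CPM [888, 943] in conventional CD4 T cells at day +7, and at 1671 CPM [1516, 1836] and 1061 CPM [1033, 1090] on day +14. H2-T23 was at 359 and 233 CPM on day +7 and at 470.1 and 294 CPM on day +14. Past 1.5-fold were 7 of 9 members at day +7 (all but H2-D1 and Tapbp), against 12.1% of 6411 genes higher, and 4 at day +14 (H2-Q7, H2-T23, Tap1 and Tapbp), against 16.4% of 6965 genes. With median-ratio scaling 5 were past it at day +7. The 9 members had medians of 0.62 and 0.47 at the 2 days, and all genes tested had medians of 0.00 and 0.02.

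Nlrc5 was an exception at day +14, with a log2 ratio of 0.00 [-0.89, 0.77] on 14 UMIs in the Foxp3+ gate, after 0.84 [-0.05, 1.63] at day +7. The other 8 members kept a ratio above 0 at both days in all 11 alternatives run. With non-cycling cells only, an alternative added after seeing the data, 3 members were past 1.5-fold at each day (13.8% and 16.2% of genes higher). The count at day +7 was 4 without the deepest 5% of cells. Median depth in the Foxp3+ gate was 8786 and 4807 UMIs, near the 8259.5 and 5355 of conventional CD4 T cells. Macrophage genes summed to 12.9 CPM in the Foxp3+ gate at day +7, against 9.41 CPM in conventional CD4 T cells, and none of the 5 was detected in Foxp3+ cells at day +14.

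Targets of interferon were higher in the same cells. All 6 type II target genes listed were past 1.5-fold in Foxp3+ over conventional CD4 T cells at day +7 and 4 of 6 at day +14. Of all genes tested, 12.1% and 16.4% were higher by that much. Of the type I targets with enough UMIs, 3 of 3 at day +7 and 2 of 2 at day +14 were also past 1.5-fold higher. With non-cycling cells only, 4 of 6 type II targets were past it on each day. Of the type I targets, 1 of 2 was at day +7 and 2 of 2 at day +14. The shares of all genes were 13.8% and 16.2% there. In all cells of the 2 gates Iigp1, which encodes a GTPase of the response to intracellular pathogens, was at 176 CPM against 7.06 at day +7 and at 307 CPM against 35.1 at day +14. Of the immunoproteasome list, Psme2 alone was past 1.5-fold at day +7 (0.61) and no gene at day +14, so these genes differed less between the gates than Tap1 and H2-Q7 did. In the neutrophil gate at day +7, type I and type II targets had median log2 ratios of 4.38 and 1.30 over CD8 T cells. In the erythroid gate these medians were 2.68 and 3.41. The members nonetheless summed to 0.754-fold and 0.783-fold of CD8 T cells in these gates, which was not tested.

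**Figure D3:**
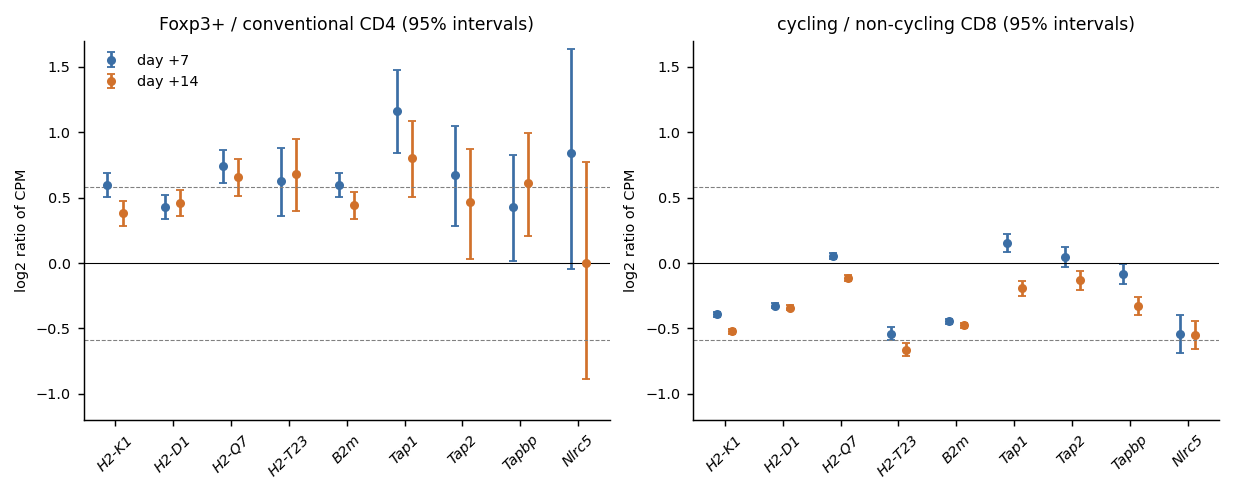
Log2 ratios of CPM for each gene, Foxp3+ over conventional CD4 T cells (left) and cycling over non-cycling CD8 T cells (right), at day +7 (blue) and day +14 (orange), with 95% intervals for counting error and dashed lines at 1.5-fold. On the left every point but that of Nlrc5 on day +14, which lies at 0, is above 0, and on the right H2-T23 at day +14, at -0.66, is the one point past a dashed line.

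Interferon target genes gave a readout of the cells that did not use the members. The CD8 T cells that had at least 4000 UMIs (all but 97 and 483 cells) were thinned to that number and classed by their UMIs on 6 genes that respond to type II interferon (Gbp2, Gbp4, Gbp7, Igtp, Irgm1 and Iigp1). At day +7 the 9 members summed to 6586 CPM [6542, 6629] in cells with 0 such UMIs, 6877 CPM with 1, 7315 CPM with 2 and 8019 CPM [7828, 8213] with 3 or more. At day +14 the sums were 7574 CPM [7522, 7626], 8181, 8612 and 9647 CPM [9485, 9811]. The sum was higher in each further class on both days, and the class of 3 or more was 1.22-fold [1.19, 1.25] and 1.27-fold [1.25, 1.3] above the class of 0. These classes held 209 and 350 cells at 3 or more, against 3345 and 2670 at 0, so cells with the highest interferon UMIs were a small part of the gate.

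Members followed the interferon classes unequally. Nlrc5 had the widest range, 2.35-fold [1.68, 3.23] at day +7 and 1.69-fold [1.36, 2.08] at day +14. It was not higher in each further class, with 22.9, 30.5, 29.1 and 53.8 CPM at day +7. At day +14 Nlrc5 had 46.1, 52.9, 48.5 and 77.9 CPM, and its top class held 45 and 109 UMIs on the 2 days. H2-T23 (1.41-fold and 1.61-fold), Tap1 (1.45-fold and 1.42-fold) and Tapbp (1.53-fold and 1.32-fold) came next, and H2-K1 and B2m were 1.28-fold to 1.31-fold higher. Tap2 did not differ beyond its interval, at 1.05-fold [0.83, 1.31] and 1.03-fold [0.875, 1.21], and H2-Q7 (1.10-fold and 1.16-fold) and H2-D1 (1.10-fold and 1.23-fold) lay between. Tap1 and Tap2, the chains of 1 transporter, thus had intervals apart at day +14, whereas at day +7 that of Tap1 [1.21, 1.73] overlapped that of Tap2. In non-cycling cells their intervals overlapped on both days. There Tap1 was at 1.68-fold [1.32, 2.11] and 1.43-fold [1.23, 1.66], and Tap2 at 1.24-fold [0.93, 1.63] and 1.17-fold [0.95, 1.44]. H2-D1 and H2-Q7 did not differ beyond their intervals in non-cycling cells at day +7, at 1.04-fold [0.976, 1.1] and 1.07-fold [0.974, 1.17]. At day +14 H2-D1 and H2-Q7 were 1.17-fold and 1.08-fold higher in those cells. The share of cycling cells went down from 57.4% to 38.3% across the classes at day +7 and from 62.4% to 40.0% at day +14. In non-cycling cells alone the sum was 1.18-fold higher on both days. Classed by 7 genes of the type I response, CD8 T cells with 3 or more UMIs had sums 1.19-fold [1.14, 1.25] and 1.33-fold [1.28, 1.37] above those with 0. At day +7 that sum was 7983 CPM with 2 UMIs and 7966 CPM with 3 or more. Across these type I classes the share of cycling cells went down from 56.3% to 28.8% and from 59.9% to 36.0%. In non-cycling cells alone the type I folds were 1.19 [1.13, 1.25] at day +7 and 1.15 [1.1, 1.2] at day +14.

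**Figure D4:**
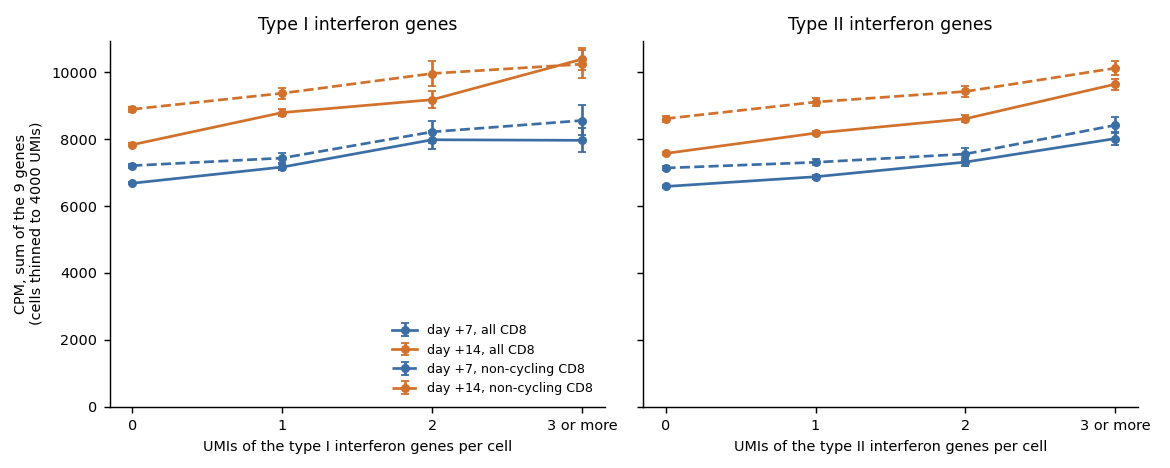
Summed CPM of the 9 genes (y axis, from 0) in CD8 T cells thinned to 4000 UMIs and classed by UMIs on type I (left) or type II (right) interferon target genes (x axis), at day +7 (blue) and day +14 (orange), for all (solid) and non-cycling (dashed) cells, with 95% Poisson intervals. Type II classes go from 6586 to 8019 CPM on day +7 and from 7574 to 9647 CPM on day +14 in all CD8 T cells.

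Other genes of the pathway were taken from fixed lists. None of the 5 genes of the immunoproteasome and its PA28 regulator (Psmb8, Psmb9, Psmb10, Psme1 and Psme2) was past 1.5-fold between days in CD8 T cells, and their median log2 ratio was -0.01. Psmb8, which encodes an inducible catalytic subunit, was at 1281 CPM on day +7 and 1201 CPM on day +14. Erap1, the aminopeptidase that trims peptides in the endoplasmic reticulum, was at 25.6 and 39.5 CPM, a log2 ratio of 0.63 [0.54, 0.71]. None of the 4 loading chaperones (Calr, Canx, Pdia3 and Tapbpl) was past 1.5-fold. The higher values of Tap1 at day +14 were thus not accompanied by the immunoproteasome genes. Irf1, an interferon-induced activator of class I genes, was at 60.2 and 85.8 CPM in CD8 T cells, under 1.5-fold, and at 56.7 and 105 CPM in conventional CD4 T cells, past it. Of the type II interferon targets, 2 of the 5 with enough UMIs were past 1.5-fold higher at day +14 in CD8 T cells, Gbp2 (0.60) and Gbp4 (0.63), and 2 of 6 in conventional CD4 T cells, Igtp (0.72) and Iigp1 (2.31), and none was lower. Of the 7 type I targets 2 had enough UMIs in conventional CD4 T cells, and Isg15, a ubiquitin-like protein, was past 1.5-fold lower there, with 63.1 CPM on day +7 and 28.3 CPM on day +14.

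Of 13 other class I genes, 6 could be compared between days in CD8 T cells. H2-Q10 was the 1 past 1.5-fold and it was lower at day +14, at 51.1 and then 16.7 CPM, a log2 ratio of -1.61 [-1.71, -1.51]. In conventional CD4 T cells it was at 52.4 CPM on day +7 and 13 CPM on day +14. H2-Q10 encodes a secreted class I molecule known from liver, and it is 1 of the genes whose transcripts share windows with H2-Q7, so its UMIs may not all be its own. H2-T22 (0.34), H2-Q4 (0.26), Cd1d1 (0.25), H2-M3 (0.10) and H2-Q6 (0.07) were higher at day +14 by less than 1.5-fold.

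The sort also held cells with neutrophil or erythroid transcripts, in which the class I genes had another makeup. In the neutrophil gate H2-Q7 was at 373 CPM [330, 421] on day +7 and 627 CPM [573, 684] on day +14, against 970.4 and 953 CPM in CD8 T cells. It was the 1 member past 1.5-fold below CD8 T cells at both days, when 48.2% and 42.9% of all genes were lower by that much and the median gene was at -0.54 and -0.45. With median-ratio scaling H2-Q7 had -0.79 and -0.12, so at day +14 no member was past 1.5-fold lower and 1, B2m at 0.68, was past it higher. B2m per UMI of the 3 abundant heavy chains was 0.567 [0.526, 0.611] and 0.520 [0.490, 0.552] in the neutrophil gate and 0.603 [0.584, 0.623] and 0.504 [0.453, 0.561] in the erythroid gate, above the 0.353 and 0.390 of CD8 T cells. The light chain was thus abundant relative to these heavy chains in both gates. In the erythroid gate at day +7, Tapbp was higher than in CD8 T cells, at 171 CPM [158, 184] and a log2 ratio of 0.83 [0.71, 0.95] (31.8% of genes higher), and 0.49, under 1.5-fold, with median-ratio scaling, while H2-D1 (-0.92) and H2-Q7 (-0.93) were lower (22% of genes lower). At day +14 no member was past 1.5-fold in that comparison, against 43.1% of genes in either direction. In the 15 day +14 cells with at most 1 T cell UMI, 8 of 9 were past 1.5-fold below CD8 T cells, against 66.6% of genes in either direction, with H2-K1 at -1.42 and H2-T23 at -1.86, and B2m, at -0.16, was the exception.

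T cell RNA was present in both gates and moved with the day. The 6 T cell genes (Cd3d, Cd3e, Cd3g, Trac, Trbc1 and Trbc2) were at 17.1% of their CD8 T cell level in the neutrophil gate and 8.35% in the erythroid gate at day +7, and at 31.3% and 49.9% at day +14. All cells of the erythroid gate gave 6 members past 1.5-fold higher at day +14 (18.3% of genes), namely H2-K1, H2-D1, H2-Q7, Tap1, Tap2 and Nlrc5. In the erythroid-gate cells with at most 1 T cell UMI, 81 at day +7 and 15 at day +14, none was higher and 5 were lower, against 52.3% of genes past 1.5-fold in either direction. There H2-K1 was at 1115 CPM [1069, 1162] and then 691 CPM [511, 914], and B2m at 1629 CPM [1573, 1686] and 1650 CPM [1365, 1978]. Besides H2-K1, the lower members were H2-T23, Tapbp, Tap2 and Nlrc5, with only 4, 5, 3 and 1 UMIs at day +14. They passed the UMI filter through day +7. The day +14 intervals of Tap2 [8.73, 124] and Nlrc5 [0.357, 78.6] included their day +7 levels of 71.4 and 25.5 CPM. The higher day +14 values of H2-K1, H2-D1 and H2-Q7 in the whole erythroid gate were not found in its cells with at most 1 T cell UMI. Tap1, Tap2 and Nlrc5 held too few UMIs there to tell. Depth also differed, with gate medians of 32598.5 and 4464.5 UMIs. The limit of 1 UMI is a count, so it is a larger share of the RNA in shallow cells and not the same criterion on both days. The part of T cell RNA in the difference was not tested.

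In the neutrophil gate 3 members were past 1.5-fold higher at day +14 (16.4% of genes), H2-K1 at 943 and 1616 CPM, H2-Q7 as above, and H2-T23 at 129 and 194 CPM. With at most 1 T cell UMI, 33 and 46 cells remained, and the log2 ratios were 0.65 for H2-K1, 1.5 for H2-Q7, 0.54 for B2m and 0.22 for H2-T23, with 2 members past 1.5-fold against 24.3% of genes in either direction. H2-Q7 was at 167 CPM [129, 213] and 472 CPM [397, 558] in these cells, lower than in the whole gate on both days. Halving the marker share for the gate added 1 cell at each day and left 1 member past 1.5-fold, so the count rests on single cells.

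**Figure D5:**
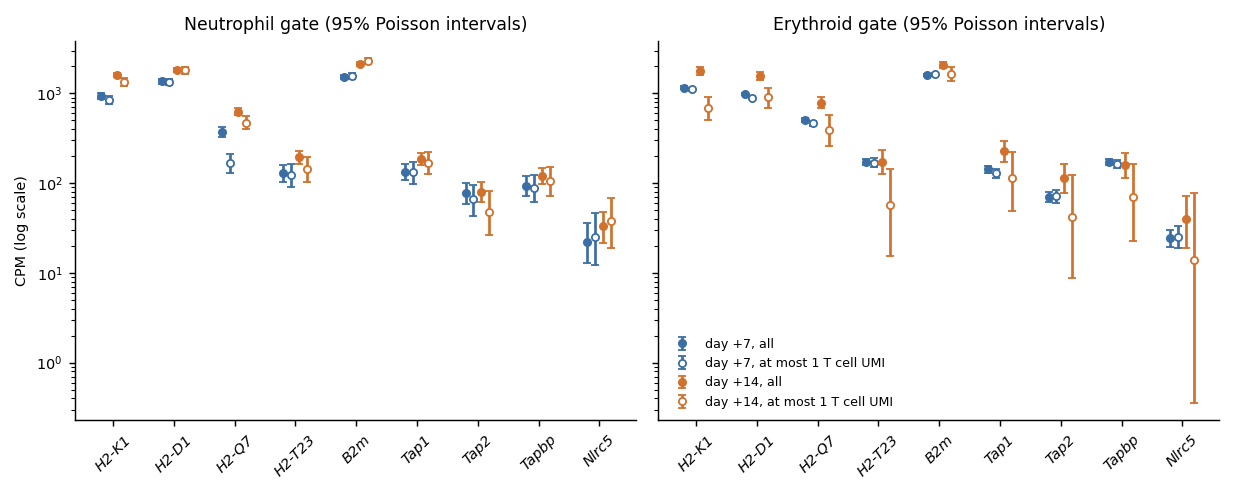
CPM of each gene (y axis, log scale) in the neutrophil gate (left) and the erythroid gate (right), for all cells (filled) and for cells with at most 1 T cell UMI (open), at day +7 (blue) and day +14 (orange), with 95% Poisson intervals. In the erythroid gate the open orange point of H2-K1, at 691 CPM, lies below its filled one, at 1782 CPM.

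Across 12 sums (6 gates on 2 days) the summed members were followed most closely by Serpina3g, a serine protease inhibitor (Pearson r = 0.99 over the log2 CPM of 2545 genes averaging 50 CPM or more), H2-T22 (0.96) and Cdc42se2 (0.95). Nlrc5 was followed by Git2 (0.90), Rbm5 (0.87) and Vamp8 (0.87), and its own r with the members ran from 0.58 for H2-Q7 to 0.83 for H2-K1. The sums share 2 libraries and differ in cells, depth and RNA of other lineages, so these values describe them and carry no test.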

How the data were processed

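The authors deposited whole-number UMI counts per gene and cell from 1 library per day, made with Cell Ranger 6.1.2 on mm10 per the labels, with no normalization, in matrices already filtered to cells. Free RNA could not be estimated from empty droplets. Barcodes with 500 to 7500 genes and at most 15% mitochondrial UMIs were kept. No doublet caller was run, although the Methods name Scrublet. T cells needed 2 T cell gene UMIs, the neutrophil gate 1% and the erythroid gate 0.1% of UMIs on their markers with at least 3 erythroid genes. Sums carry exact Poisson intervals and ratios exact conditional binomial (Clopper-Pearson) intervals, computed in Python 3.11.15 with numpy 2.4.6, pandas 2.3.3 and scipy 1.17.1, without a pseudocount. Calculations were tested on simulated data. Positions are from GENCODE M21 and promoters from RefSeq. Named genes are the 9 members, marker genes, list genes past 1.5-fold, some list genes under it, and the 3 genes most alike. The members, lists and gates were chosen with earlier results of these data known. The list of transcription factors is reported only in part, since 1 item is not reported here.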

Additional observations from a re-analysis of the deposited data

Results flagged for a closer look

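Differences of sign between gates or days, with both 95% counting intervals clear of 0, occurred for H2-Q7 and Tap1. These were not tested, since each gate is 1 sum per day. The day +14 over day +7 log2 ratio of H2-Q7 was -0.073 in cycling CD8 T cells, while it was 0.091 in non-cycling CD8 T cells, 0.21 in conventional CD4 T cells, 0.75 in the neutrophil gate and 0.63 in the erythroid gate. In cycling over non-cycling CD8 T cells, H2-Q7 had 0.052 at day +7 and -0.11 at day +14, and in conventional CD4 over CD8 T cells -0.085 at day +7 and 0.16 at day +14. Tap1 had 0.15 at day +7 and -0.19 at day +14 in cycling over non-cycling CD8 T cells, where depth differed as described. Part of these signs depends on the processing. With median-ratio scaling the H2-Q7 day ratio was -0.14 in non-cycling and -0.27 in cycling CD8 T cells. In erythroid-gate cells with at most 1 T cell UMI it was -0.24, on 28 UMIs at day +14. H2-Q7 in cycling over non-cycling CD8 T cells was -0.026 at day +7 with the total without mitochondrial, ribosomal protein and rRNA-associated genes and 0.027 at day +14 with thinned cells.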

How the results depend on the processing

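No paired analysis was possible because each day is 1 library and no test was made. Of 172 counts of members past 1.5-fold recomputed under alternatives, 126 were within 1.5 times the reported count and 46 were not, and the cause was not tested. The alternatives non-cycling cells only and the Foxp3+ gate without B-lineage UMIs, were added after seeing the data. Depth limits Nlrc5 in the small gates, with 10 to 26 UMIs in 5 of the 6 sums of the Foxp3+, neutrophil and erythroid gates.

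For the day comparison, the count was 1 in CD8 T cells with median-ratio scaling, 5 in conventional CD4 T cells thinned to 4000 UMIs, 4 in non-cycling CD8 T cells with the mean of single-cell CPM, and 2 in cycling CD8 T cells with that mean, with thinning, without the deepest 5% of cells and with a cycling share of 0.05% or 0.2%. In Foxp3+ T cells it was 1 with the total without mitochondrial, ribosomal protein and rRNA-associated genes and 0 with 2 Foxp3 UMIs required. In the neutrophil gate it was 1 at a lower marker share (0.5 times). In the erythroid gate it was 0 with the total without those genes, 1 with the mean of single-cell CPM and 2 at a higher marker share (2 times).

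For cycling over non-cycling CD8 T cells, the counts at days +7 and +14 were 2 and 3 with the total without those genes and 1 and 2 at a cycling share of 0.05%. The mean of single-cell CPM gave 1 at day +7, and at day +14 thinning, leaving out the deepest 5% and a share of 0.2% gave 0. For conventional CD4 over CD8 T cells at day +14, the count was 1 with the total without those genes and with the mean of single-cell CPM. For Foxp3+ over conventional CD4 T cells, it was 4 at day +7 and 2 at day +14 with the total without those genes, 4 at day +7 without the deepest 5%, 3 at day +7 in non-cycling cells, and 2 at day +14 with 2 Foxp3 UMIs required.

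For the neutrophil gate over CD8 T cells, the counts at days +7 and +14 were 5 and 3 with the total without those genes, 2 and 2 with the mean of single-cell CPM, 4 and 3 with thinning, 4 and 2 without the deepest 5%, and 3 and 2 with at most 1 T cell UMI. Median-ratio scaling gave 3 at day +7, and at day +14 its count of 1 was a member past 1.5-fold higher in place of 1 lower. A mitochondrial limit of 5% and the lower marker share each gave 2 at day +14. For the erythroid gate over CD8 T cells at day +7, median-ratio scaling gave 3, all lower, in place of 1 higher and 2 lower. At day +14, the count was 5 with the mean of single-cell CPM, 1 without the deepest 5% and 1 at a lower marker share. It was 8 with at most 1 T cell UMI, where Tap1, Tapbp, H2-T23, Tap2 and Nlrc5 had 8, 5, 4, 3 and 1 UMIs.

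The 6 log2 ratios past 1.5-fold that changed sign were all between days in the erythroid gate. With at most 1 T cell UMI they were -0.69 for H2-K1, -0.24 for H2-Q7, -0.18 for Tap1, -0.75 for Tap2 and -0.85 for Nlrc5, and with the mean of single-cell CPM Nlrc5 was at -0.55. The cells with at most 1 T cell UMI held 28 UMIs of H2-Q7, 8 of Tap1, 3 of Tap2 and 1 of Nlrc5 at day +14. For these genes the day +14 interval included the day +7 level, so no lower value at day +14 is shown for them.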
